A study of Mus musculus with 6 samples.

Results

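Skin exposed to bleomycin and treated with ajulemic acid was set against control skin, to describe what differed from control despite the drug. The members are 4 of the 6 libraries of the series, taken by their labelled group: 3 libraries of bleomycin with ajulemic acid and 1 control library. All 6 libraries came from skin of female BALB/c mice aged 6 to 8 weeks. The other groups, bleomycin alone and bleomycin with EHP-101, held 1 library each and are given beside the members as values. The labels give no dose, route or time, and do not say whether the control received a vehicle. They also do not say whether each ajulemic acid library is its own animal, so p-values rest on a spread between libraries that could be technical. The control is a single library, so that each difference from it has no replicate check on the control side. Further deposited control counts have no sample label in this series and were not used.

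Bleomycin breaks DNA, and repeated exposure of mouse skin to it is used as a model of the dermal fibrosis of scleroderma, in which inflammation and vascular injury are accompanied by collagen deposition and loss of dermal fat. Ajulemic acid is a synthetic cannabinoid acid known to act on the cannabinoid receptor CB2 and on PPAR-gamma, the nuclear receptor of adipocyte differentiation. EHP-101 is a formulation of the cannabidiol derivative VCE-004.8, also known to act on PPAR-gamma and CB2.

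The libraries held 14291592, 18639641 and 19837682 counts in ajulemic acid replicates 1, 2 and 3, the order in which values of these libraries are given throughout, 15542255 in bleomycin, 15483701 in EHP-101 and 15728362 in control. Keratins of skin were high in every library, with Krt14 at 1840, 1497 and 1493 CPM (counts scaled to the size of the library) in ajulemic acid against 1112 CPM in control, and Krt5 at 2277, 1764 and 1978 CPM against 1443 CPM. Replicate 2 stood apart from the other ajulemic acid libraries in the genes of the growing hair follicle, and the control library stood apart from the other 5 in small noncoding RNAs, lung transcripts and muscle regeneration genes. Liver transcripts separated the ajulemic acid libraries from the other 3. Of 17377 genes tested with edgeR, 0 were called higher (0% of genes) and 6 lower (0.0345%) in ajulemic acid skin at an adjusted p of 0.05. At an unadjusted p of 0.05 there were 525 higher (3.02%) and 713 lower (4.1%). DESeq2 called 98 higher and 178 lower. A gene is called separated below where all 3 ajulemic acid libraries lay on the same side of control and the nearest was at least 2-fold away. This is a description without a test. It held for 227 genes higher (1.31%) and 413 lower (2.38%) in ajulemic acid skin. Fold changes were above 0 for 54.9% of all genes tested and below 0 for 45.1%.

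**Figure D1:**
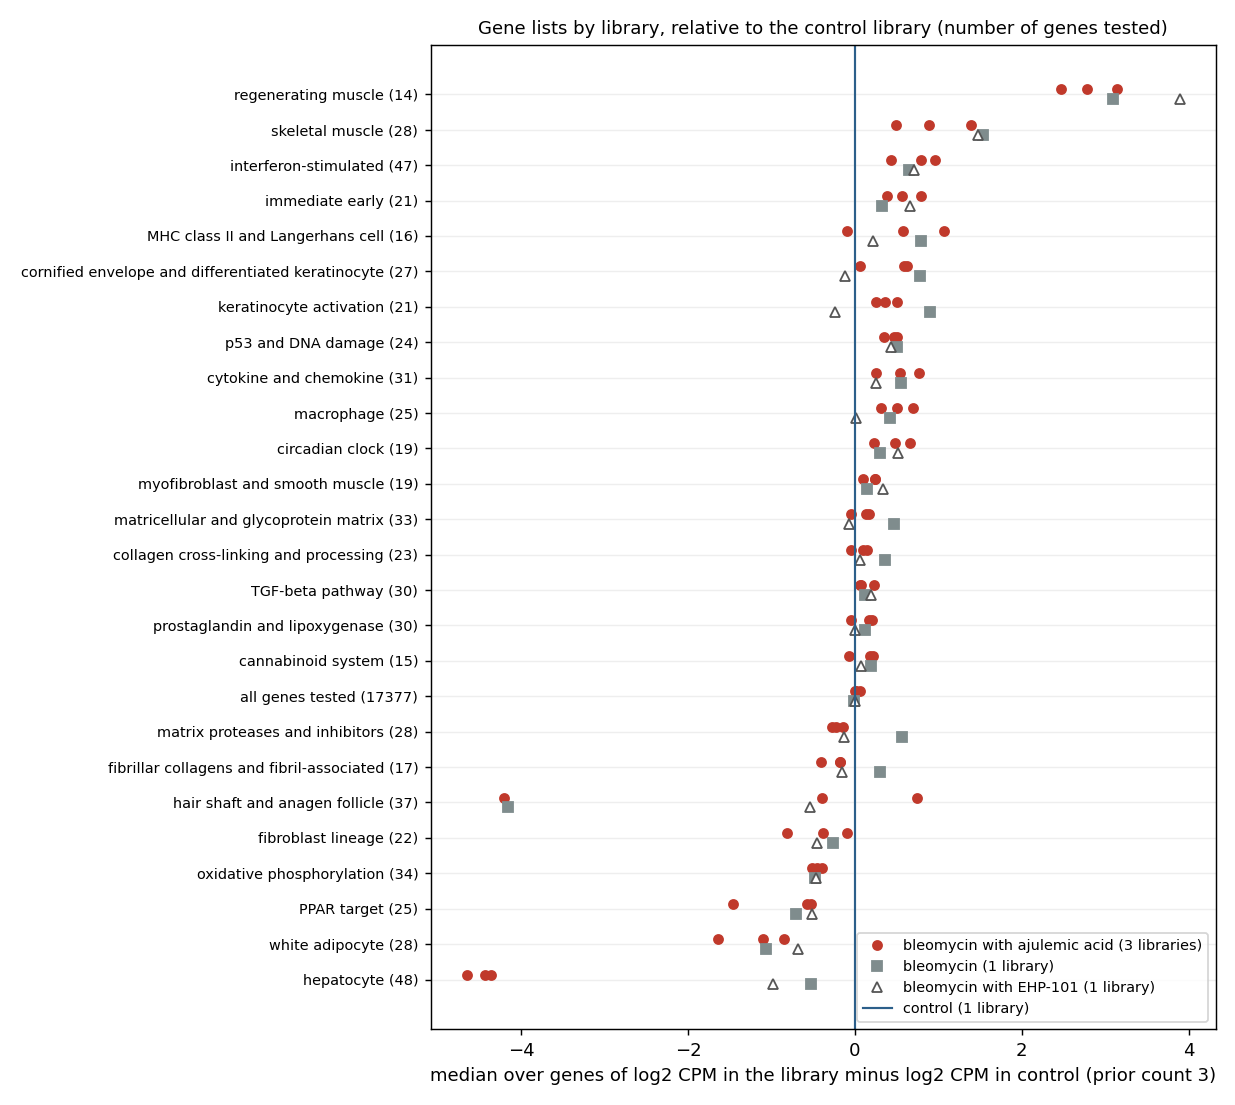
Median over the tested genes of each list of log2 CPM in a library minus log2 CPM in control (prior count 3), with ajulemic acid libraries as circles, bleomycin as squares, EHP-101 as triangles and control as the line at 0. The regenerating muscle list lies at 2.47 to 3.14 in the ajulemic acid libraries and the white adipocyte list at -1.64 to -0.85, while the hair shaft list spans -4.20 to 0.75.

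The 6 genes that passed the test all fell in ajulemic acid skin, and all encode proteins known mainly from liver. Itih4, an inter-alpha-trypsin inhibitor heavy chain (gene 16427, chromosome 14, 30886492 to 30901983 in mm10, plus strand), had 0.545, 0.516 and 0.399 CPM in ajulemic acid, 11.3 CPM in bleomycin, 12.8 CPM in EHP-101 and 20.2 CPM in control (exact 95% Poisson interval 18.0 to 22.6, counting error only). The other libraries therefore lay far above the ajulemic acid range, not control alone. Its log2 fold change was -5.37 (SE 0.26, edgeR quasi-likelihood adjusted p = 0.0466). Apoh, the plasma protein beta-2-glycoprotein I, had 0.273, 0.172 and 0.150 CPM in ajulemic acid, 8.27 CPM in bleomycin, 7.87 CPM in EHP-101 and 14.9 CPM in control. Both had all 3 ajulemic acid libraries below 1 CPM. Itih2, Plg (plasminogen) and Abcb11, the bile salt export pump, likewise had control highest and the 3 ajulemic acid libraries lowest. Their log2 fold changes were -4.71, -5.88 and -5.26, with edgeR adjusted p of 0.0466, 0.0484 and 0.0466. None of the 6 passed edgeR without ajulemic acid replicate 1, with a minimum count of 30, with only the 4 libraries compared, or with limma.

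These genes were 6 among many of their kind. In the hepatocyte list, 47 of 48 tested genes were lower in ajulemic acid skin, against 45.1% of all genes, 43 of them separated (89.6%, against 2.38%), and 5 of the 6 called genes belong to it. Alb, albumin, had 5.59, 12.6 and 1.74 CPM in ajulemic acid, 477 CPM in bleomycin, 454 CPM in EHP-101 and 678 CPM in control, so the libraries fell into a low and a high group. Its log2 fold change of -6.67 (SE 1.03) had an edgeR adjusted p of 0.207, with a wide spread among the ajulemic acid libraries. Fabp1, Fga, Pzp, Ttr and Apoa2 had log2 fold changes of -8.98, -7.91, -6.70, -7.39 and -7.14 and were all below 0.5 CPM in each ajulemic acid library except Pzp in replicate 2, at 0.745 CPM. Hp, haptoglobin, which is also made outside the liver and was chosen after its values were seen, was the 1 list member that was higher, with 430, 366 and 309 CPM in ajulemic acid, 295 CPM in bleomycin, 638 CPM in EHP-101 and 90.5 CPM in control. Lung surfactant genes were high mainly in control: Sftpc had 0.477, 0.0573 and 0.199 CPM in ajulemic acid, 3.27 CPM in bleomycin, 0.183 CPM in EHP-101 and 17.5 CPM in control. Hemoglobin Hbb-b1 had 2.11, 7.10 and 4.49 CPM in ajulemic acid and 34.8 CPM in control. The summed level of the erythroid and platelet list was 37.3, 44.5 and 41.3 CPM in ajulemic acid, 38.9 CPM in bleomycin, 35.4 CPM in EHP-101 and 105.9 CPM in control. Unlike the liver transcripts, this sum was high in control alone. The part of RNA from other organs or blood in the control, bleomycin and EHP-101 libraries was not tested.

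**Figure D2:**
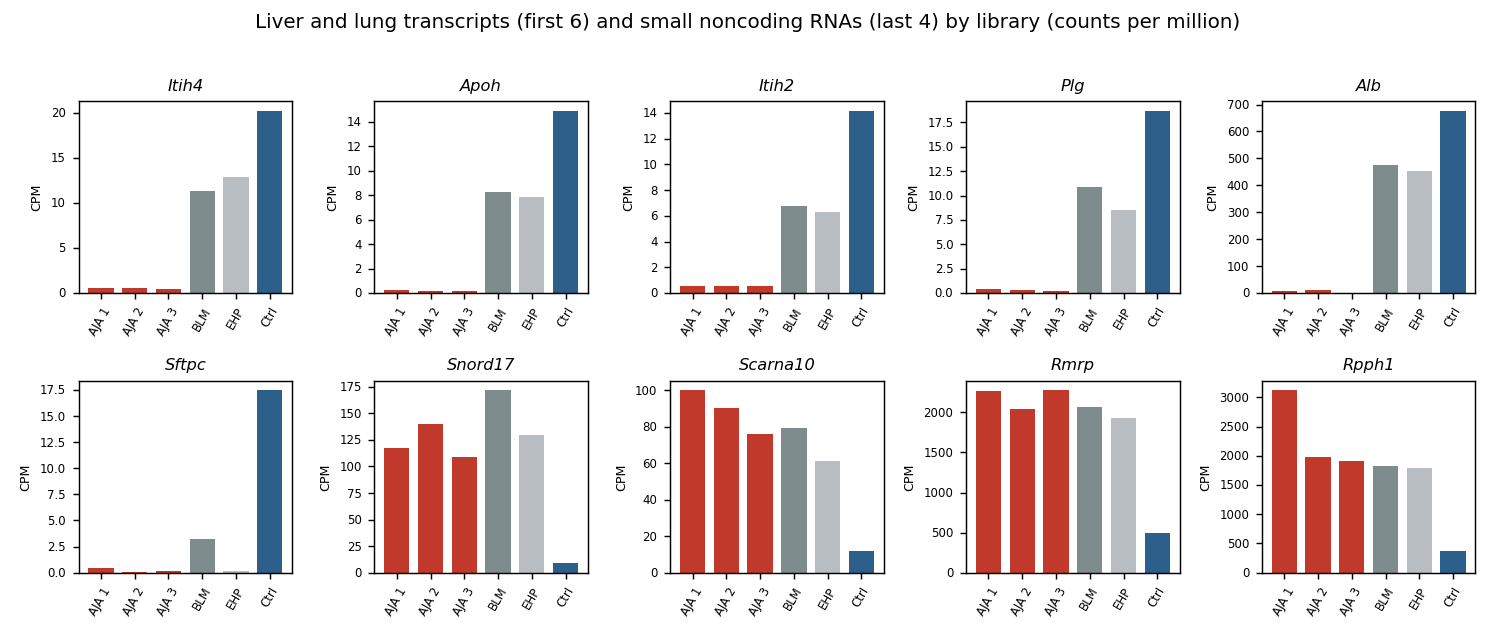
CPM per library, 1 bar each, for liver transcripts, the lung surfactant gene Sftpc and 4 small noncoding RNAs, on axes starting at 0 (AJA, bleomycin with ajulemic acid; BLM, bleomycin; EHP, bleomycin with EHP-101; Ctrl, control). Liver bars are near 0 in the 3 ajulemic acid libraries (Alb 1.74 to 12.6 CPM) and high in bleomycin, EHP-101 and control, whereas the small RNA bars are low in control alone.

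Genes of muscle regeneration were higher in ajulemic acid skin than in control. Under the skin of the mouse lies a thin sheet of skeletal muscle, and injured muscle rebuilds fibres from satellite cells, which pass through a sequence of transcription factors, fuse, and make embryonic and neonatal myosins before adult ones. All 14 tested genes of the regenerating muscle list were higher, 13 of them separated (92.9%, against 1.31% of all genes). The median log2 fold change was 3.70, or 3.43 with 3 control counts assumed for the 2 genes at 0 counts in control. None of the 14 passed the edgeR adjustment, the smallest adjusted p being 0.103. The list's members were named after their values were seen, except Myh3, Myog, Cdh15 and Chrna1. Bulk skin cannot tell more cells of a type from more RNA per cell.

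Among the factors that set muscle fate, Pax7, the marker of satellite cells, had 1.16, 1.49 and 2.09 CPM in ajulemic acid, 2.05 CPM in bleomycin, 3.05 CPM in EHP-101 and 0.0657 CPM in control, where it was a single count. The pooled ratio of ajulemic acid to control was 24.8, with an exact 95% counting interval of 4.33 to 991. Myf5 had 0 counts in control. With 3 counts in control assumed as a floor, it was 5.15-fold higher in the pooled ajulemic acid libraries. The lower end of its exact 95% counting interval was 4.13-fold. Myod1 had 2.66, 2.23 and 1.55 CPM in ajulemic acid and 0.197 CPM in control. Every ajulemic acid library was above control for each of these factors. Myog, which drives terminal differentiation (gene 17928, chromosome 1), had 9.34, 5.84 and 12.2 CPM in ajulemic acid, 11.9 CPM in bleomycin, 18.6 CPM in EHP-101 and 0.591 CPM in control, a log2 fold change of 3.93 (SE 0.64, edgeR adjusted p = 0.153). Myf6, the factor of late differentiation, had 4.36, 5.04 and 5.13 CPM in ajulemic acid and 1.64 CPM in control.

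The genes of myoblast fusion and of the immature fibre were placed alike. Mymk, the fusion protein myomaker, had 2.45, 1.2 and 4.04 CPM in ajulemic acid and 0 counts in control. It was 13.0-fold higher against the assumed floor, with a lower end of the counting interval of 10.8-fold. Myh3, the embryonic myosin heavy chain (chromosome 11, 67078300 to 67102291 in mm10, plus strand), had 63.8, 25.8 and 59.4 CPM in ajulemic acid, 104 CPM in bleomycin, 156 CPM in EHP-101 and 1.71 CPM in control. It averaged 49.7 ± 20.8 CPM in ajulemic acid (SD, n = 3), with a log2 fold change of 4.86 (SE 0.77, edgeR adjusted p = 0.153). Myh8, the neonatal myosin, had 49.7, 28.2 and 73.6 CPM in ajulemic acid, 94.1 CPM in bleomycin, 114 CPM in EHP-101 and 4.53 CPM in control. For both myosins the bleomycin and EHP-101 libraries lay above all 3 ajulemic acid libraries. Acetylcholine receptor subunits of muscle followed the same order. Chrna1 had 8.04, 4.47 and 8.87 CPM in ajulemic acid and 0.788 CPM in control. Chrng, the subunit of immature and denervated muscle, had 1.36, 0.458 and 1.84 CPM against 0.131 CPM. Cdh15, the cadherin of myoblasts, had 4.57, 3.21 and 5.08 CPM in ajulemic acid and 0.131 CPM in control. Ncam1, with 22.8, 15.1 and 26.7 CPM against 14 CPM, was the 1 member not separated, its replicate 2 being close to control.

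Genes of the mature fibre differed less and less evenly. In the skeletal muscle list 26 of 28 tested genes were higher in ajulemic acid skin, against 54.9% of all genes. Its median log2 fold change was 0.99. Separated were 6 (21.4%, against 1.31%), or 12 without replicate 3. Over all genes the number separated above also rose without replicate 3, from 227 to 452. Tnnt1, the slow troponin T, had 13.8, 12.7 and 17.9 CPM in ajulemic acid, 17.1 CPM in bleomycin, 27.0 CPM in EHP-101 and 1.38 CPM in control, a log2 fold change of 3.42 (SE 0.37, edgeR adjusted p = 0.0812). Xirp1, an actin-binding protein of remodelling sarcomeres, had 25.9, 27.6 and 25.3 CPM in ajulemic acid and 7.16 CPM in control (edgeR adjusted p = 0.08). Myh2, the myosin of type IIa fibres, had 342, 316 and 208 CPM against 61.8 CPM. Myh4, the myosin of the fastest fibres, was placed the other way, with 195, 463 and 397 CPM in ajulemic acid, 1077 CPM in bleomycin, 720 CPM in EHP-101 and 707 CPM in control (edgeR adjusted p = 0.843). The summed level of the 28 mature genes was 19749, 27781 and 12266 CPM in ajulemic acid, 29071 CPM in bleomycin, 28969 CPM in EHP-101 and 10555 CPM in control. Replicate 3 thus held little more of this sum than control, while its regeneration genes were as far above control as those of the other replicates. Such a sum is set mostly by its most counted genes. The list medians of log2 CPM minus control, which do not weight genes by level, were 0.89, 1.39 and 0.49 in ajulemic acid, 1.53 in bleomycin and 1.47 in EHP-101. How much of the difference goes with the amount of muscle in each piece of skin was not tested. Ttn, titin, and Myh4 were named after their values were seen. Ttn had 12369, 17260 and 7127 CPM in ajulemic acid and 6427 CPM in control, which is large beside the sums above.

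H19 and Igf2, imprinted neighbours that are expressed in developing and regenerating muscle, were also higher. H19, a noncoding RNA, had 146, 201 and 143 CPM in ajulemic acid, 259 CPM in bleomycin, 257 CPM in EHP-101 and 29.6 CPM in control (log2 fold change 2.47, SE 0.30, edgeR adjusted p = 0.0992). Igf2, a fetal growth factor, had 20.4, 16 and 33.6 CPM in ajulemic acid, 56.2 CPM in bleomycin, 57.0 CPM in EHP-101 and 2.82 CPM in control. Des, desmin, the intermediate filament of muscle, had 257, 314 and 276 CPM in ajulemic acid and 77.3 CPM in control. All 3 were separated from control, and for each the bleomycin and EHP-101 libraries were above the ajulemic acid range.

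**Figure D3:**
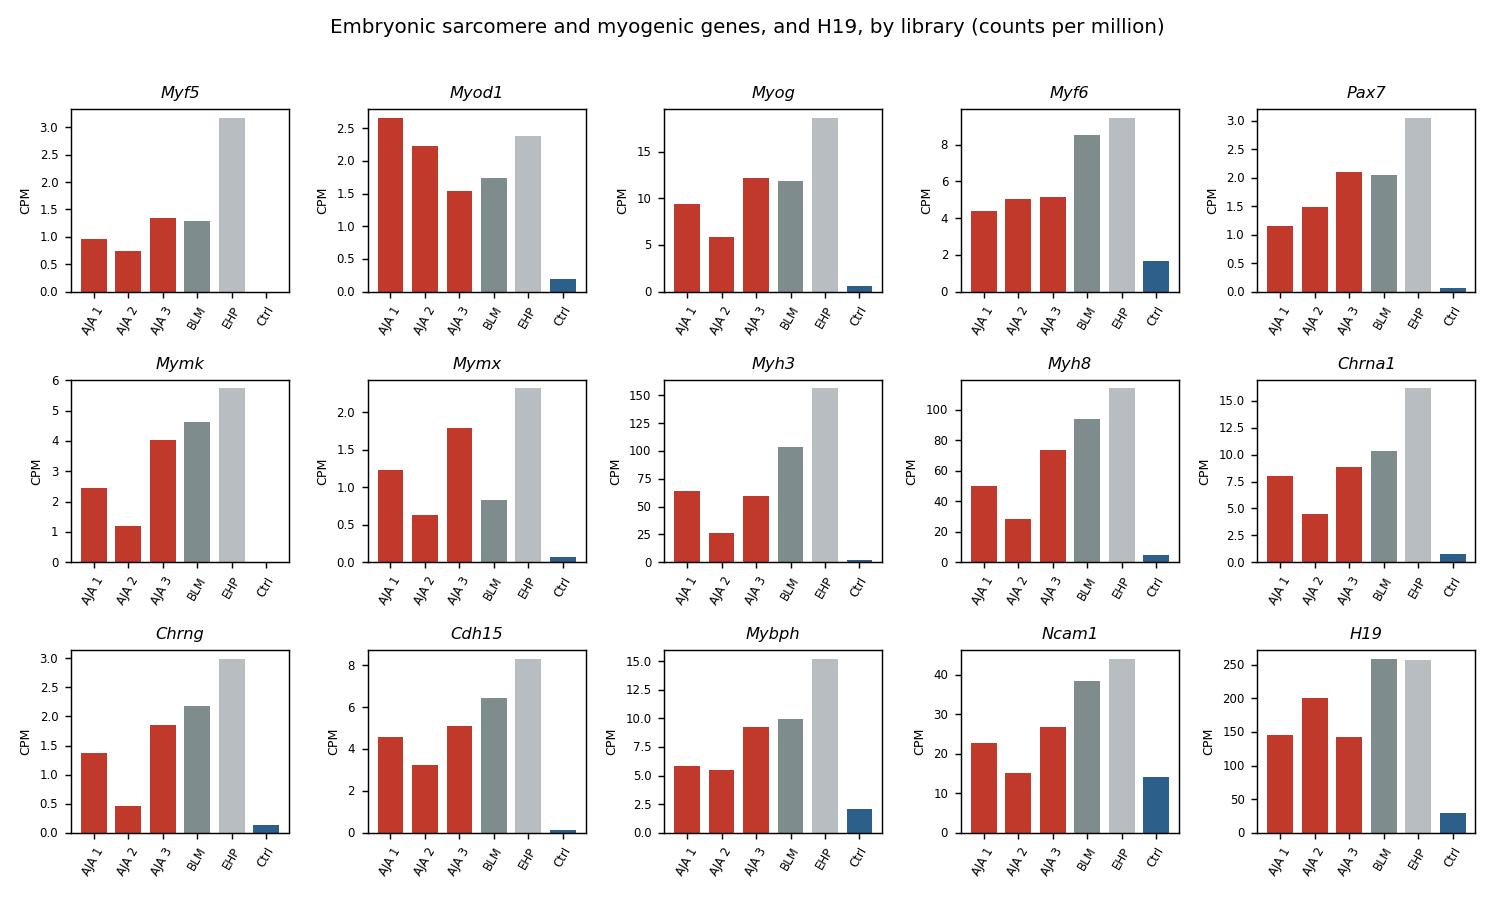
CPM per library, 1 bar each, for the 14 genes of the regenerating muscle list and H19, on axes starting at 0 (AJA, bleomycin with ajulemic acid; BLM, bleomycin; EHP, bleomycin with EHP-101; Ctrl, control). Control is the lowest library in every panel, and Myh3 ranges from 25.8 to 63.8 CPM in the ajulemic acid libraries against 1.71 CPM in control.

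The collagens of the dermis were mostly at or below control in ajulemic acid skin. Fibrillar collagens I, III and V make up the bulk of dermal matrix, and their genes are the classical readout of fibrosis. In the list of fibrillar and fibril-associated collagens, 12 of 17 tested genes were lower, against 45.1% of all genes, and 2 were separated (11.8%, against 2.38%), with a median log2 fold change of -0.22 beside 0.036 over all genes. Col1a1 (chromosome 11, 94936270 to 94951867 in mm10, plus strand) had 817, 926 and 704 CPM in ajulemic acid, 1683 CPM in bleomycin, 902 CPM in EHP-101 and 1663 CPM in control. The ajulemic acid and EHP-101 libraries were thus low, while bleomycin and control were close to each other. It averaged 816 ± 111 CPM in ajulemic acid (SD, n = 3), a log2 fold change of -1.03 (SE 0.23, edgeR adjusted p = 0.305). Col3a1 had 1691, 2029 and 1499 CPM in ajulemic acid and 2477 CPM in control, and Col5a1, chosen after its values were seen, had 159, 150 and 167 CPM against 231 CPM. Col14a1, a fibril-associated collagen, had 78.1, 74.4 and 57.7 CPM in ajulemic acid, 81.4 CPM in bleomycin, 74.3 CPM in EHP-101 and 174 CPM in control, so control alone was high (edgeR adjusted p = 0.153). Col6a6, a microfibril chain, had 3.54, 3.90 and 2.49 CPM in ajulemic acid and 10.8 CPM in control.

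Some genes of matrix assembly and turnover were placed the other way. Col8a1, a short-chain network collagen, had 54.4, 43.0 and 43.4 CPM in ajulemic acid, 114 CPM in bleomycin, 47.3 CPM in EHP-101 and 9.85 CPM in control, a log2 fold change of 2.25 (SE 0.25, edgeR adjusted p = 0.0861). Lox, an oxidase of lysine residues needed for collagen and elastin cross-links, had 44.4, 43.5 and 47.2 CPM in ajulemic acid, 95.8 CPM in bleomycin, 34.8 CPM in EHP-101 and 20.8 CPM in control (log2 fold change 1.12, SE 0.17, edgeR adjusted p = 0.144). Both were separated from control and below bleomycin in every ajulemic acid library. Timp1, an inhibitor of metalloproteinases, had 17.2, 10.7 and 15.4 CPM in ajulemic acid and 2.82 CPM in control. Spp1, osteopontin, had 29.1, 17.4 and 37.1 CPM in ajulemic acid, 48.6 CPM in bleomycin, 35.6 CPM in EHP-101 and 4.33 CPM in control. C1qtnf3, a secreted protein of cartilage and fibroblasts, had 31.1, 32.8 and 29.5 CPM in ajulemic acid, 79.8 CPM in bleomycin and 9.13 CPM in control (edgeR adjusted p = 0.0861). These 5 genes were separated from control. The matrix lists as wholes lay closer to control, and the median log2 fold change was 0.08 over 23 cross-linking and processing genes, 0.20 over 33 matricellular genes and -0.16 over 28 proteases and inhibitors. Without ajulemic acid replicate 2 the medians of cross-linking and matricellular genes were -0.07 and -0.05.

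Other matrix genes were near or below control in ajulemic acid skin, several of them being highest in the bleomycin library. Mmp12, macrophage elastase, had 6.13, 8.77 and 8.57 CPM in ajulemic acid, 35.3 CPM in bleomycin, 9.33 CPM in EHP-101 and 9.32 CPM in control (log2 fold change against control -0.25, SE 0.29). Mmp11, stromelysin 3, had 4.16, 5.39 and 3.84 CPM in ajulemic acid, 23.2 CPM in bleomycin, 3.96 CPM in EHP-101 and 11.4 CPM in control and was separated below control. Adam12, a protease of activated mesenchymal cells, had 11.4, 8.65 and 13.6 CPM in ajulemic acid, 35.9 CPM in bleomycin and 27.1 CPM in control. Postn, periostin, had 386, 484 and 325 CPM in ajulemic acid, 782 CPM in bleomycin, 398 CPM in EHP-101 and 642 CPM in control (edgeR adjusted p = 0.7). Acta2, smooth muscle actin, the marker of myofibroblasts and vessel walls, had 95.1, 88.6 and 108 CPM in ajulemic acid, 85.7 CPM in bleomycin, 102 CPM in EHP-101 and 80.5 CPM in control (log2 fold change 0.27, SE 0.18, edgeR adjusted p = 0.967). Tgfb1, the central fibrogenic cytokine, had 14.9, 16.5 and 13.1 CPM against 11.2 CPM in control. In the TGF-beta pathway list 0 of 30 genes were separated, against 1.31% of all genes higher and 2.38% lower, a small difference for a list of this size.

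Fibroblast markers were mostly lower in ajulemic acid skin. In the fibroblast lineage list 16 of 22 genes were lower, against 45.1% of all genes, with a median log2 fold change of -0.32, or -0.66 without replicate 2 and -0.17 without replicate 3. Separated below control were 2 genes (9.09%, against 2.38% of all genes), or 5 without replicate 2 and 4 without replicate 3. Over all genes the number separated below also rose, from 413 to 624 and 499. Gpc3, a glypican, had 14.2, 12.7 and 15.1 CPM in ajulemic acid, 10.3 CPM in bleomycin, 14.3 CPM in EHP-101 and 43.3 CPM in control (log2 fold change -1.63, SE 0.19, edgeR adjusted p = 0.0916). Dpp4, the surface peptidase of upper and fascial fibroblasts, had 38.4, 45.3 and 51.0 CPM in ajulemic acid, 21.2 CPM in bleomycin, 28.5 CPM in EHP-101 and 99.9 CPM in control. For Dpp4 the bleomycin library was below every ajulemic acid library. Sfrp2, a secreted Wnt antagonist of dermal fibroblasts, had 3.88, 5.44 and 2.19 CPM in ajulemic acid and 25.8 CPM in control. A further pair of genes, Pla1a and Pgr, was chosen after the values were seen. Pla1a, a phosphatidylserine phospholipase, had 2.04, 2.18 and 1.55 CPM in ajulemic acid, 3.78 CPM in bleomycin, 1.95 CPM in EHP-101 and 20.8 CPM in control (log2 fold change -3.43, SE 0.28, edgeR adjusted p = 0.0651). Pgr, the progesterone receptor, had 0.136, 0.401 and 0.449 CPM in ajulemic acid, 0.513 CPM in bleomycin, 0.244 CPM in EHP-101 and 9.85 CPM in control (log2 fold change -4.83, SE 0.51, edgeR adjusted p = 0.08).

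**Figure D4:**
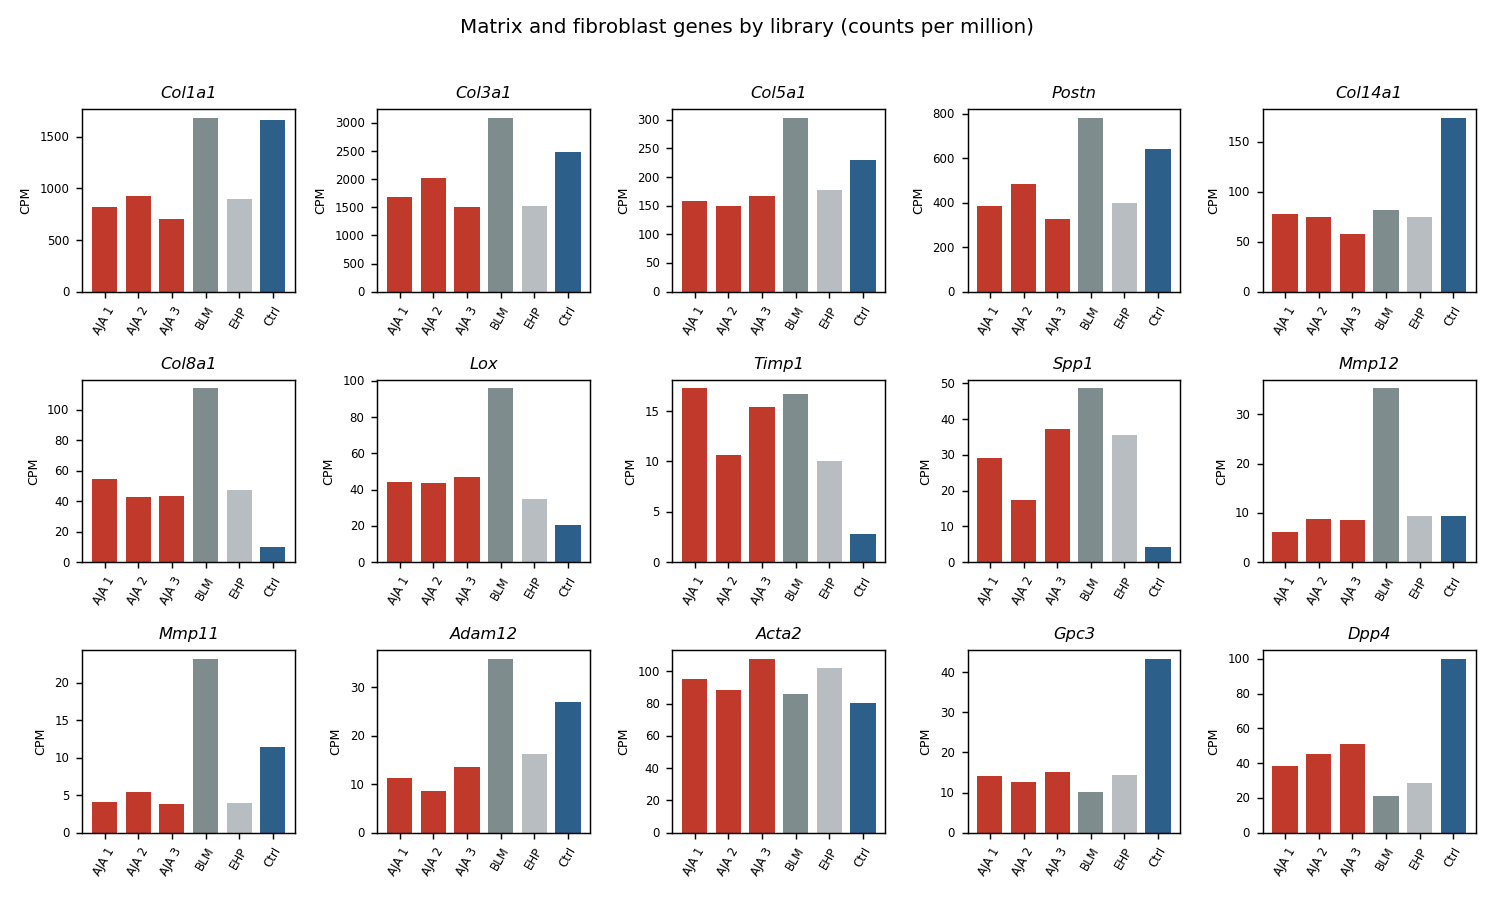
CPM per library, 1 bar each, for matrix and fibroblast genes, on axes starting at 0 (AJA, bleomycin with ajulemic acid; BLM, bleomycin; EHP, bleomycin with EHP-101; Ctrl, control). Col1a1 is lower in the 3 ajulemic acid libraries (704 to 926 CPM) than in control (1663 CPM), Col8a1, Lox and Timp1 are higher than in control, and Gpc3 and Dpp4 are lower.

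Markers of fat were lower in ajulemic acid skin. All 28 tested genes of the white adipocyte list were below control and 8 were separated (28.6%, against 2.38% of all genes), with a median log2 fold change of -1.16. Without replicate 2 there were 15 separated, while over all genes the number separated below rose from 413 to 624. Without replicate 3 there was 1 gene of the list above control. Fabp4, the adipocyte fatty acid binding protein, had 290, 345 and 289 CPM in ajulemic acid, 214 CPM in bleomycin, 449 CPM in EHP-101 and 847 CPM in control, a log2 fold change of -1.46 (SE 0.19, edgeR adjusted p = 0.103). Lep, leptin, had 28.5, 23.7 and 20.7 CPM in ajulemic acid, 21.0 CPM in bleomycin, 62.9 CPM in EHP-101 and 65.9 CPM in control. The EHP-101 library was thus close to control for Lep, and the ajulemic acid libraries close to bleomycin. Adipoq, adiponectin, had 122, 136 and 76.1 CPM in ajulemic acid, 86.6 CPM in bleomycin, 173 CPM in EHP-101 and 264 CPM in control. Pparg, the receptor itself, had 17.5, 26.0 and 14.1 CPM in ajulemic acid, 19.2 CPM in bleomycin, 24.2 CPM in EHP-101 and 46.5 CPM in control (edgeR adjusted p = 0.443).

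Genes of fat synthesis were lower too. Acaca, acetyl-CoA carboxylase, had 124, 166 and 131 CPM in ajulemic acid, 171 CPM in bleomycin, 110 CPM in EHP-101 and 444 CPM in control (log2 fold change -1.66, SE 0.21, edgeR adjusted p = 0.103). Thrsp, a lipogenic nuclear protein chosen after its values were seen, had 21.1, 44.4 and 8.57 CPM in ajulemic acid and 277 CPM in control. In the list of PPAR target genes 22 of 25 were lower, against 45.1% of all genes. Separated were 6 (24%, against 2.38% of all genes). With mitochondrial rRNA, hepatocyte and muscle genes taken out, 21 of 24 were lower and 5 were separated. Without replicate 2 there were 11 separated, while over all genes the number separated below rose from 413 to 624. Pck1, phosphoenolpyruvate carboxykinase, had 62.0, 48.0 and 41.5 CPM in ajulemic acid, 46 CPM in bleomycin, 102 CPM in EHP-101 and 172 CPM in control. The list shares Fabp4 and other genes with the white adipocyte list, whose summed level was 6471, 9232 and 4635 CPM in ajulemic acid, 7936 CPM in bleomycin, 6497 CPM in EHP-101 and 15247 CPM in control, and the part of the amount of fat in the PPAR target levels was not tested. Some brown adipocyte genes, also chosen after their values were seen, were highest in control. Ucp1, the uncoupling protein of brown fat, had 0.0682, 17.1 and 0.0498 CPM in ajulemic acid, 0.0641 CPM in bleomycin, 0.244 CPM in EHP-101 and 95.1 CPM in control. Otop1 had 0.750, 2.06 and 0.548 CPM in ajulemic acid and 7.03 CPM in control, and Cidea 18.3, 40.8 and 13.3 CPM against 59.8 CPM. Dio2, the deiodinase of brown fat, was placed the other way, with 22.6, 32.2 and 23.7 CPM in ajulemic acid and 14.7 CPM in control.

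Nuclear-encoded subunits of the respiratory chain were lower by a small and even amount. All 34 tested genes of the oxidative phosphorylation list were below control, against 45.1% of all genes, with a median log2 fold change of -0.46, and none was separated by 2-fold. The 34 stayed below control with each scaling of the libraries. Ndufv2, a core subunit of complex I, had 52.5, 55.2 and 53.4 CPM in ajulemic acid, 46.1 CPM in bleomycin, 48.6 CPM in EHP-101 and 85.4 CPM in control (log2 fold change -0.67, SE 0.15, edgeR adjusted p = 0.309). Uqcrq, of complex III, had 20.9, 18.5 and 21.3 CPM in ajulemic acid and 33.0 CPM in control. The bleomycin and EHP-101 libraries lay at the ajulemic acid level for the list, with medians of -0.47 in each against control. Tkt, the transketolase of the pentose phosphate pathway, differed more, with 127, 135 and 157 CPM in ajulemic acid, 123 CPM in bleomycin, 115 CPM in EHP-101 and 517 CPM in control (log2 fold change -1.89, SE 0.18, edgeR adjusted p = 0.0651). Taldo1 and Pgd of the same pathway had log2 fold changes of -0.61 and -0.47. The summed level of the respiratory list was 3096, 3290 and 3270 CPM in ajulemic acid and 4327 CPM in control. Control was the highest library for this sum and for that of the white adipocyte list, and the part of fat in the respiratory levels was not tested.

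Genes induced by interferon were higher in ajulemic acid skin. Type I interferons act through receptor-bound kinases and a complex of transcription factors that includes IRF9 and binds the interferon-stimulated response element in the promoters of antiviral genes. In the interferon-stimulated list 45 of 47 genes were above control, against 54.9% of all genes, with a median log2 fold change of 0.82. Only 6 were separated (12.8%, against 1.31% of all genes), or 17 without replicate 3, the library with the lowest list median. Over all genes the number separated above also rose without replicate 3, from 227 to 452. Oas3, a sensor of double-stranded RNA, had 13.2, 15 and 12.6 CPM in ajulemic acid, 12.2 CPM in bleomycin, 9.88 CPM in EHP-101 and 3.41 CPM in control, a log2 fold change of 1.99 (SE 0.27, edgeR adjusted p = 0.113). Ifi44 had 25.3, 29.0 and 20.8 CPM in ajulemic acid, 23.1 CPM in bleomycin, 18.8 CPM in EHP-101 and 6.70 CPM in control (edgeR adjusted p = 0.137). Control was the lowest of the 6 libraries for both. Oas1a had 6.20, 6.42 and 6.98 CPM in ajulemic acid and 2.36 CPM in control. Mx1, a transcribed pseudogene by its RefSeq biotype and chosen after its values were seen, had 8.59, 11.3 and 7.93 CPM against 3.55 CPM. Irf7, the transcription factor that amplifies the response, had 37.3, 42.9 and 36.3 CPM in ajulemic acid and 19 CPM in control, and Isg15, a ubiquitin-like modifier, had 8.18, 6.99 and 8.72 CPM against 3.81 CPM. Ifi27, chosen after its values were seen, was placed the other way, with 54.7, 64.4 and 49.6 CPM in ajulemic acid and 98.1 CPM in control.

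The promoters of 4 members of the list are shown, each with the core of that element within 250 bases before the start of the gene (RefSeq, GRCm38.p6). The letters searched were GAAA, any 2 bases and a second GAAA, on both strands, and matches may overlap. A match was present in 17 of 34 list members with a promoter window (50.0%), against 3.46% of 27025 genes with a window and 3.21% of 13021 tested genes. Of the 6 separated members 5 had a window and 3 a match. The 3 were Oas3, Oas1a and Ifit3b, and Isg15 was not separated. Ifit3, also not separated, held the same stretch of bases as the one shown for Ifit3b. A match is a description of letters, not a shown binding site. Sequences run 5′ to 3′ on the strand of the gene, with matches in capitals; the Ifit3b matches read GAAA on the opposite strand. The intervals are chr5:120777685-120777774 on the minus strand for Oas3, chr5:120907526-120907585 on the minus strand for Oas1a, chr4:156200835-156200936 on the minus strand for Isg15 and chr19:34607729-34607852 on the plus strand for Ifit3b.
Oas3: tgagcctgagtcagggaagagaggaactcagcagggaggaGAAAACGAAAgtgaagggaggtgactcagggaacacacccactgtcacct
Oas1a: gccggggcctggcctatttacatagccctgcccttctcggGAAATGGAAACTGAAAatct
Isg15: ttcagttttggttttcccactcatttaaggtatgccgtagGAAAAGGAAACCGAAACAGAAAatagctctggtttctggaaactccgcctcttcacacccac
Ifit3b: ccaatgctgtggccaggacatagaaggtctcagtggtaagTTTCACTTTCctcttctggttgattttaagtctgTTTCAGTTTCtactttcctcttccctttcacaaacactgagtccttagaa
Oas3 held 1 match, 75 bases before its start, Oas1a held 2 that overlap, Isg15 held 3 in 1 overlapping run, and Ifit3b held 2 apart from each other.

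Inflammatory genes were higher for some ligands and lower for others. In the cytokine and chemokine list 22 of 31 genes were above control, against 54.9% of all genes. Separated above control were 6 (19.4%, against 1.31% of all genes), or 9 without replicate 3. Over all genes the number separated above also rose without replicate 3, from 227 to 452. Separated below was 1 (3.23%, close to the 2.38% of all genes). Ccl2, the monocyte chemoattractant, had 10.6, 12.2 and 13.3 CPM in ajulemic acid, 13.9 CPM in bleomycin, 9.45 CPM in EHP-101 and 3.22 CPM in control, a log2 fold change of 1.90 (SE 0.28, edgeR adjusted p = 0.136). Ccl7 had 9.40, 14.3 and 9.87 CPM in ajulemic acid and 3.41 CPM in control, and Il1b had 6.68, 8.71 and 5.53 CPM against 1.97 CPM. For Ccl2 the bleomycin library lay just above the ajulemic acid range. Ccl24, an eosinophil chemoattractant, was separated below, with 1.64, 3.50 and 1.69 CPM in ajulemic acid and 7.81 CPM in control. Vcam1, the endothelial adhesion molecule, had 11.9, 11.6 and 9.37 CPM in ajulemic acid, 24.2 CPM in bleomycin, 14 CPM in EHP-101 and 6.17 CPM in control. Sele, E-selectin, which captures leukocytes at activated endothelium, had 8.79, 9.51 and 4.39 CPM in ajulemic acid and 1.58 CPM in control.

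Macrophage markers were mostly above control, with 19 of 25 genes of that list higher, against 54.9% of all genes, and 15 of 25 without replicate 2. Msr1, a scavenger receptor, had 19.6, 21.8 and 15.5 CPM in ajulemic acid, 16.2 CPM in bleomycin, 19 CPM in EHP-101 and 5.52 CPM in control (edgeR adjusted p = 0.173). Csf3r, the granulocyte colony-stimulating factor receptor, had 11, 12.7 and 9.62 CPM in ajulemic acid and 2.17 CPM in control, while the neutrophil list had a median log2 fold change of 0.38, or -0.12 without replicate 2. Ms4a4c, expressed by inflammatory monocytes and chosen after its values were seen, had 11.7, 19.6 and 9.77 CPM in ajulemic acid, 8.02 CPM in bleomycin, 6.28 CPM in EHP-101 and 1.31 CPM in control. The list of alternatively activated macrophage genes was split, with 5 of 12 genes above control and 7 below. Separated below were 3 of the 12 (25%, against 2.38% of all genes). Its median log2 fold change was -0.23, or -0.71 without replicate 2 and 0.14 without replicate 3. Retnla, a secreted product of interleukin 4-activated macrophages that is also made in fat, had 3.68, 6.42 and 3.84 CPM in ajulemic acid, 4.10 CPM in bleomycin, 5.12 CPM in EHP-101 and 77.2 CPM in control, a log2 fold change of -4.05 (SE 0.34, edgeR adjusted p = 0.0651). Clec10a had 12.7, 23.3 and 9.92 CPM in ajulemic acid and 34.5 CPM in control, and Cd209f had 2.79, 4.24 and 1.05 CPM against 16.6 CPM. Control was the highest library for these 3 genes.

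Targets of p53, the transcription factor activated by DNA breaks, were mostly above control. In the p53 list 21 of 24 genes were higher, against 54.9% of all genes, with a median log2 fold change of 0.46. Eda2r, a death receptor of the TNF family, had 20.3, 25.9 and 21.5 CPM in ajulemic acid, 26.6 CPM in bleomycin, 27.1 CPM in EHP-101 and 6.17 CPM in control, a log2 fold change of 1.87 (SE 0.26, edgeR adjusted p = 0.115). It was the 1 separated member (4.17% of the list, against 1.31% of all genes). Cdkn1a, the cell cycle inhibitor p21, had 150, 86.3 and 141 CPM in ajulemic acid, 126 CPM in bleomycin, 122 CPM in EHP-101 and 68.0 CPM in control (edgeR adjusted p = 0.761). Replicate 2 lay nearest to control for Cdkn1a. Mdm2 had 70.7, 74.7 and 74.4 CPM in ajulemic acid and 52.7 CPM in control.

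Immediate early genes, transcribed within minutes of a stimulus and also known to respond to the handling of tissue, were higher in ajulemic acid skin. In the list 20 of 21 genes were above control, against 54.9% of all genes, and 5 were separated (23.8%, against 1.31%). Fosb, a subunit of the AP-1 factor, had 47, 40.7 and 60.4 CPM in ajulemic acid, 19.8 CPM in bleomycin, 72.5 CPM in EHP-101 and 3.68 CPM in control, a log2 fold change of 3.74 (SE 0.35, edgeR adjusted p = 0.0651). Fos had 204, 129 and 224 CPM in ajulemic acid, 83.8 CPM in bleomycin, 213 CPM in EHP-101 and 18.8 CPM in control. Atf3, induced by stress, had 25, 20.4 and 29.3 CPM in ajulemic acid and 6.04 CPM in control, and Dusp1, a phosphatase of MAP kinases, had 90.0, 78.2 and 79.1 CPM against 34.0 CPM. Control was the lowest library for all 4. The palindrome TGACGTCA, the cyclic AMP response element, was present before the start of 1 of 16 list members with a window (Dusp1), against 2.70% of tested genes.

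The clock gene Per2 had 25.6, 24.8 and 19.6 CPM in ajulemic acid, 8.27 CPM in bleomycin, 20.4 CPM in EHP-101 and 6.70 CPM in control, a log2 fold change of 1.80 (SE 0.27, edgeR adjusted p = 0.137). It was the 1 separated gene of the circadian clock list, in which 14 of 19 genes were above control, against 54.9% of all genes, and the 1 separated gene is 5.26% of the list, against 1.31%. Tef, a clock output factor, had 161, 186 and 111 CPM in ajulemic acid, 105 CPM in bleomycin, 161 CPM in EHP-101 and 80.6 CPM in control. The hour of sampling was not given in the labels, and its part was not tested.

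**Figure D5:**
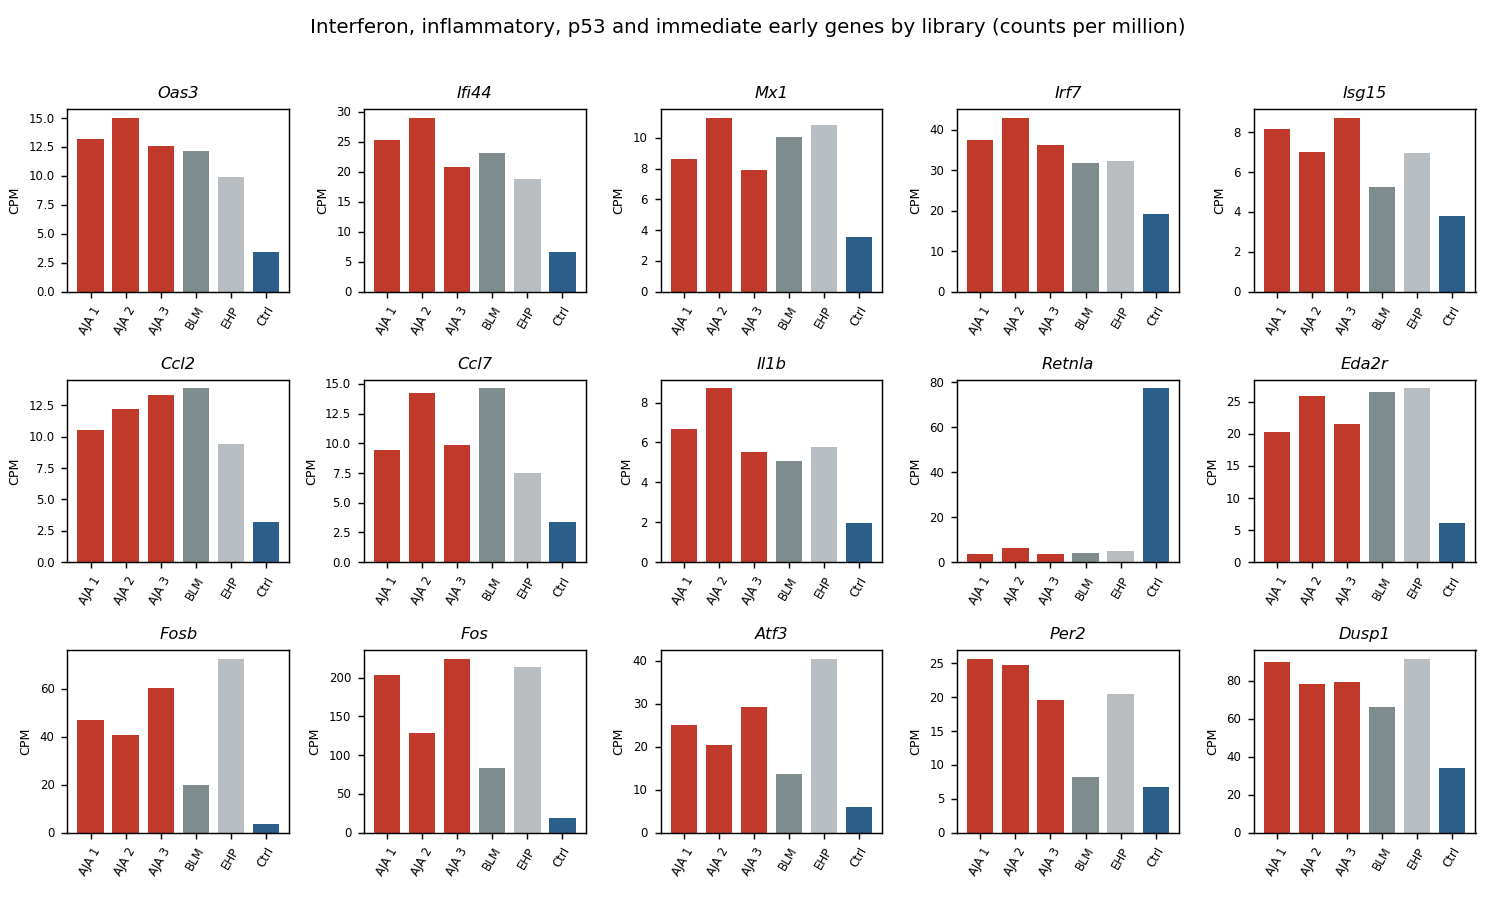
CPM per library, 1 bar each, for interferon, inflammatory, p53, immediate early and clock genes, on axes starting at 0 (AJA, bleomycin with ajulemic acid; BLM, bleomycin; EHP, bleomycin with EHP-101; Ctrl, control). Control is the lowest library for Oas3, Ifi44, Ccl2, Eda2r, Fosb and Per2 and the highest for Retnla (77.2 CPM against 3.68 to 6.42 CPM in ajulemic acid).

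Epidermal genes were mostly a little above control. In the list of cornified envelope and differentiated keratinocyte genes 26 of 27 were above control, against 54.9% of all genes, with a median log2 fold change of 0.53. The 1 separated gene (3.7%, against 1.31% of all genes) was Krt2, with 7.50, 4.30 and 3.69 CPM in ajulemic acid, 27.3 CPM in bleomycin and 1.58 CPM in control. Rptn, repetin, a protein of the cornified envelope, had 25.6, 45.0 and 35.0 CPM in ajulemic acid, 249 CPM in bleomycin, 15.9 CPM in EHP-101 and 33.0 CPM in control (log2 fold change against control 0.09, SE 0.34). Krt16, a keratin of activated epidermis, had 31.2, 33.0 and 25.4 CPM in ajulemic acid, 99.2 CPM in bleomycin and 21.3 CPM in control. Both were far below the bleomycin library in every ajulemic acid library. Hair genes could not be compared with control in the same way, because the ajulemic acid libraries differed among themselves. The hair shaft list had per-library medians of -0.39, -4.20 and 0.75 in ajulemic acid, -4.16 in bleomycin and -0.54 in EHP-101 against control, on the log2 scale. Krt36, a hair keratin, had 17.2, 2.29 and 37.5 CPM in ajulemic acid, 1.28 CPM in bleomycin and 30.6 CPM in control. Melanocyte genes and proliferation genes followed, with Mlana at 6.82, 0.573 and 13.3 CPM in ajulemic acid against 10.7 CPM in control, and Cdk1 at 18.2, 10.8 and 25.6 CPM against 25.1 CPM.

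No gene of the cannabinoid list or of the prostaglandin and lipoxygenase list was separated from control. Over all genes tested the shares were only 1.31% higher and 2.38% lower, so lists this short can hold none without differing from other genes. In the cannabinoid list 10 of 15 genes were higher and in the prostaglandin and lipoxygenase list 20 of 30, against 54.9% of all genes. Cnr2, the CB2 receptor of immune cells, had 4.77, 6.65 and 3.34 CPM in ajulemic acid, 4.30 CPM in bleomycin, 3.05 CPM in EHP-101 and 2.23 CPM in control (log2 fold change 1.14, SE 0.51, edgeR adjusted p = 0.801). Cnr1, the CB1 receptor, had 4.02, 3.27 and 3.74 CPM in ajulemic acid, 5.07 CPM in bleomycin, 6.71 CPM in EHP-101 and 3.94 CPM in control, a log2 fold change of -0.10 (SE 0.29). Faah, which degrades anandamide, had 65.6, 59.3 and 46.1 CPM in ajulemic acid and 34.1 CPM in control. Ptgs2, cyclooxygenase 2, had 8.38, 5.50 and 8.82 CPM in ajulemic acid and 5.06 CPM in control (edgeR adjusted p = 0.961).

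Small noncoding RNAs were higher in ajulemic acid skin, as in the bleomycin and EHP-101 libraries. These RNAs guide the modification of ribosomal and spliceosomal RNA or form the cores of RNA-processing enzymes, and short RNAs are recovered to varying degrees by RNA isolation and library kits. Over the genes of these classes, grouped by RefSeq biotype after the data were seen, 82 of 96 were above control, against 54.9% of all genes, and 25 were separated (26%, against 1.31%). Snord17 (chromosome 2, 144265982 to 144266202 in mm10, minus strand) had 118, 140 and 109 CPM in ajulemic acid, 172 CPM in bleomycin, 130 CPM in EHP-101 and 9.0 CPM in control, a log2 fold change of 3.76 (SE 0.26, edgeR adjusted p = 0.0574), the smallest p among genes that were higher. Scarna10 had 100.1, 90.4 and 76.1 CPM in ajulemic acid and 11.8 CPM in control. Rmrp, the RNA of RNase MRP, had 2272, 2043 and 2277 CPM in ajulemic acid, 2066 CPM in bleomycin, 1934 CPM in EHP-101 and 498 CPM in control. Rpph1, the RNA of RNase P, chosen after its values were seen, had 3120, 1978 and 1902 CPM in ajulemic acid and 366 CPM in control. Control was the lowest of the 6 libraries for each. Mitochondrial ribosomal RNA took 17.3, 26.1 and 18.5% of the counts in ajulemic acid, 19.8% in bleomycin, 17.9% in EHP-101 and 26.5% in control, so ajulemic acid replicate 2 matched control in that share but not in small RNAs. The part of RNA isolation was not tested.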

How the data were processed

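Counts of stranded, ribosome-depleted total RNA libraries of mouse skin (300 ng of RNA, single-end reads of 50 bp, per the labels' protocols) were used as deposited. The authors deposited raw counts per gene with NCBI gene numbers and mm10 exon coordinates. The submitters' processing notes name featureCounts 1.6.1, HISAT2 2.1.0, Trimmomatic 0.36 and DESeq2 1.20.0. How strand and multiply matching reads were handled is not given in the sources used here. Genes with close copies, such as keratins, hemoglobins and small RNAs inside host genes, are therefore uncertain. Of 27179 gene numbers 25275 had a RefSeq symbol. A deposited table merged with another series held the same counts, with 0 differing values. Its 6 other sample columns, including 2 further control columns, were not used, because no sample label of the series covers them.

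The test was edgeR 4.0.16 (R 4.3.3): minimum count 10, TMM, and robust two-sided quasi-likelihood F-tests fitted to the 6 libraries together, adjusted by Benjamini-Hochberg over 17377 genes. Only the ajulemic acid libraries supplied the 2 residual degrees of freedom; their biological coefficient of variation was 0.267, and control was assumed to vary alike. The 3 ajulemic acid libraries differed beyond sampling noise (chi-square per degree of freedom 37.3 to 132). With 3 libraries against 1, an exact two-sided rank test cannot go below p = 0.5 and was not run. CPM used TMM-scaled library sizes, and the 2-fold separation was taken on log2 CPM (prior count 3). CPM are not per length and are not compared between genes. Intervals cover counting error only.

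The members and the 46 gene lists were chosen with earlier results of these data known. The text names genes called by edgeR, the 15 separated genes higher and the 15 lower of smallest p (mean log2 CPM at least 2), the 4 members of smallest p in each list's direction, and a panel of 29 genes, and says where a gene was chosen after its values were seen. Some genes that this rule names are not reported here. In simulated counts for this comparison (17135 genes tested) 78 of 100 simulated 4-fold changes and 99 of 100 16-fold changes were recovered by edgeR. It also called 40 genes simulated without a change, more than the 6 calls in the data. Alternatives were DESeq2 1.42.0, limma-trend 3.58.1, other scalings, filters and prior counts, the 4 libraries alone, and leaving out each ajulemic acid library.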

Additional observations from a re-analysis of the deposited data

How the results depend on the processing

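No paired analysis was possible because the groups compared share only replicate number 3. Against 0 genes higher and 6 lower, DESeq2 called 98 higher and 178 lower, total counts without a scaling factor 1 and 34, and no filter on low counts 27 and 126. Limma-trend, a minimum count of 30, only the 4 libraries compared, and library sizes without mitochondrial rRNA, hepatocyte and muscle genes each gave 0 lower; the last removes 5 of the 6 genes from the table. Leaving out 1 ajulemic acid library gave 0 to 137 higher and 0 to 231 lower, with 0 lower without replicate 1, 171 without replicate 2 and 231 without replicate 3. Separated genes then numbered 262 to 452 higher and 452 to 624 lower, since fewer libraries have to agree. Without replicates 1, 2 and 3 they were 270, 262 and 452 higher and 452, 624 and 499 lower. Counts of separated list members without a replicate are to be read against these. Of 47 list medians, between 0 and 5 moved beyond the spread between replicates in each setting with all 3 ajulemic acid libraries, and 3, 13 and 7 without replicates 1, 2 and 3. The median of the hepatocyte list was -4.54 with limma-trend and -5.77 to -5.23 when leaving out a library, that of regenerating muscle 2.75 with limma-trend, and that of small noncoding RNAs 1.2 with a minimum count of 30. Leaving out a library gave -0.37 to -0.15 for proteases and inhibitors, 0.40 to 0.71 for cytokines and chemokines and -0.54 to -0.41 for oxidative phosphorylation. The cause of these differences was not tested. Genes below about 1 CPM rest on few counts.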
